A study of Mus musculus with 4 samples.

Results

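The BCL2 family genes that keep blood cells alive or let them die were examined for binding of Sub1, a single-stranded-DNA-binding transcriptional coactivator, in normal and leukemic stem cells of the mouse. The 9 members are Bcl2, Bcl2l1, Bcl2l2, Mcl1, Bcl2l11, Bax, Bak1, Bid and Bad, of 21887 protein-coding genes in the RefSeq annotation of GRCm38.p6 (mm10). Each was represented by its gene body extended by 10 kb on both sides, called the window here, and by the peaks of 4 deposited lists that overlapped it by at least 1 bp. Members were chosen by name, not by a measured value, though with earlier results of these data known.

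Sub1 was profiled by CUT&Tag, in which an antibody directs a transposase to cut and tag DNA where the protein sits. Hematopoietic stem cells (HSCs) were bone marrow cells sorted as CD48-CD150+LSK from Nup214fl/+ mice. Leukemia stem cells (LSCs) were Lin-, Sca-1-, c-Kit+, CD34+ and CD16/32+ cells sorted from Nup214fl/+ mice with leukemia driven by MLL-AF9, a fusion oncogene of acute myeloid leukemia. All 4 libraries thus carry 1 floxed allele of Nup214, a gene for a component of the nuclear pore. The title of the series concerns Nup214 and ferroptosis of LSCs. No Cre, promoter for MLL-AF9, age or treatment is given in the sources used here, and LSCs and HSCs differ in sorting gate as well as in disease, and these 2 sources of difference cannot be told apart. There were 2 libraries in each group, called HSC 1, HSC 2, LSC 1 and LSC 2. Nothing in the labels says whether they came from separate mice, so their spread may be technical. The tag for cell type reads hematopoietic stem cell for all 4, and groups were taken from the sample titles. Every peak in the deposited files has a name that begins with H4-Cut, and no label says what this stands for. The peaks are taken as those of Sub1 because the labels name that antibody, and nothing in the lists was used to check it.

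In the mitochondrial pathway of apoptosis, the survival proteins encoded by Bcl2, Bcl2l1 (BCL-XL), Bcl2l2 (BCL-W) and Mcl1 hold the effectors BAX and BAK in check. BH3-only proteins, here BIM (Bcl2l11), BID and BAD, either bind the survival proteins or activate the effectors, which then open the outer mitochondrial membrane and release cytochrome c. Hematopoietic stem cells are known to depend on Mcl1, and BCL2 and MCL1 are drug targets in acute myeloid leukemia.

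The lists differed in length. HSC 1 and HSC 2 held 115881 and 235680 peaks, and LSC 1 and LSC 2 held 41097 and 34185. Peaks covered 79.0, 159, 47.8 and 52.9 Mb in the same order, and the lowest -log10 q was between 5.21 and 5.41 in every list. Read totals are not given, so depth is unknown. Peak numbers are therefore given as deposited and again in lists of equal size, each cut to its 34185 strongest peaks by -log10 p. To compare libraries at a start site, each gene's strongest peak within 1 kb of a listed start was placed among the 17492 genes with a listed start. This value, the place, is the percentile of that peak by -log10 p among these genes, so 90 means that about 90% of genes had a weaker start-site peak or none. Order by the authors' fold gave the same places. The place was adopted after the data were seen. With 2 libraries against 2, a two-sided exact permutation test over the 6 assignments cannot go below p = 0.33, so no comparison between the groups could pass 0.05.

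The 9 members have 13 listed starts. The 250 bases before a start are shown for Mcl1 and Bcl2, the members with the widest gap between the nearest HSC and LSC places in each direction, and for Bax and Bak1, the effector pair. They come from RefSeq's promoters on GRCm38.p6, run 5′ to 3′ on the gene's strand and end at the base before the start. Capitals mark matches, on either strand, to 7 motifs searched: the GC box with letters GGGCGG, the CCAAT box by its own letters, the TATA box as TATAAA, the cyclic AMP response element as TGACGTCA, the E-box as CACGTG, the ETS motif as CCGGAAG and the AP-1 motif as TGAGTCA. None of these motifs contains another.
Mcl1 (plus strand, chr3:95658471-95658720): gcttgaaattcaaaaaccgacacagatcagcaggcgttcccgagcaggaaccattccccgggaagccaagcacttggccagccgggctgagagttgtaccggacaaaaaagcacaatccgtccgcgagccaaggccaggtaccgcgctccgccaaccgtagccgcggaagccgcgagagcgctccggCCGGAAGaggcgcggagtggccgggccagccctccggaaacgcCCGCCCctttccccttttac
Bcl2 (minus strand, chr1:106714291-106714540): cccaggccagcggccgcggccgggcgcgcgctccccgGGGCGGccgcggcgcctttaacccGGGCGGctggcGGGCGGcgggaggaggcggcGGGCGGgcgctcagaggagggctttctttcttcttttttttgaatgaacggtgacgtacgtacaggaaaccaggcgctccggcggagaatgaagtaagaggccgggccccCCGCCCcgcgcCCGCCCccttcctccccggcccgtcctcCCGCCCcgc
Bax (minus strand, chr7:45466899-45467148): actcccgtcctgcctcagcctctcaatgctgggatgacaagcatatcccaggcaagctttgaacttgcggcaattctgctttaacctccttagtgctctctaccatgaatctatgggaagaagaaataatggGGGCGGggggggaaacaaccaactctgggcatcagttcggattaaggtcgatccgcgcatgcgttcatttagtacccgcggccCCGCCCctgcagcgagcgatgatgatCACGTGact
Bak1 (minus strand, chr17:27028628-27028877): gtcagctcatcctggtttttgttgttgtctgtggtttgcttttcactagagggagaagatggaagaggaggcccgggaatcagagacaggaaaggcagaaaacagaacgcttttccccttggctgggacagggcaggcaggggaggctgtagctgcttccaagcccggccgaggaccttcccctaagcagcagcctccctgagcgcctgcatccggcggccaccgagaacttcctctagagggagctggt

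Bcl2 had the highest GC content of all 13 stretches, 74.8%, with 7 GC boxes. The quartiles over 21263 start sites in the table were 47.2% and 64.0%, with a median of 55.6%. Both Bcl2l11 starts, at 72.0% and 73.2%, also lay above the upper quartile. The 3 Bcl2l1 starts, at 47.6% to 53.2%, lay below the median. A GC box was found before 8 of 13 member starts, against 42.6% of all starts. CCAAT was found before 3 of 13 (35.4% of all), at Bad and Bcl2l11. The E-box was found before Bax alone (6.63% of all) and the ETS letters before 2 starts, of Mcl1 and Bcl2l11 (8.98% of all). The TATA box, the cyclic AMP response element and the AP-1 motif matched no member start, against 11.6%, 1.92% and 4.06% of all starts. Bak1 held none of the 7 motifs in its 250 bases. Peaks overlapped these 250 bases in all 4 libraries at 11 of the 13 starts, against 41.5% of all starts in the table. The exceptions were the Bcl2 start, overlapped in HSC 2 and LSC 1 alone, and the most downstream start of Bcl2l1, overlapped in none, as were 41.9% of all starts.

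Sub1 peaks were found at all 9 members in every library. All 9 had a peak in the window in all 4 libraries, a property of 60.6% of protein-coding genes. All 9 also had a peak within 1 kb of a start in all 4 libraries, which 49.8% of genes with a listed start had. For single libraries that background was 56.1% in HSC 1, 63.5% in HSC 2, 55.0% in LSC 1 and 52.8% in LSC 2. In lists of equal size all 9 again had a start-site peak in all 4 libraries, against 45.6% of genes. No member was occupied in 1 cell type alone. A gene or region is called HSC-only where the pair of HSC lists has a peak and the pair of LSC lists has none, and LSC-only in the reverse case. By window peaks, 0 members and 8.59% of all genes were HSC-only, and 0 members and 0.0274% of genes were LSC-only. By start-site peaks, these were 0 members and 2.29% of genes, and 0 members and 0.48% of genes.

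**Figure D1:**
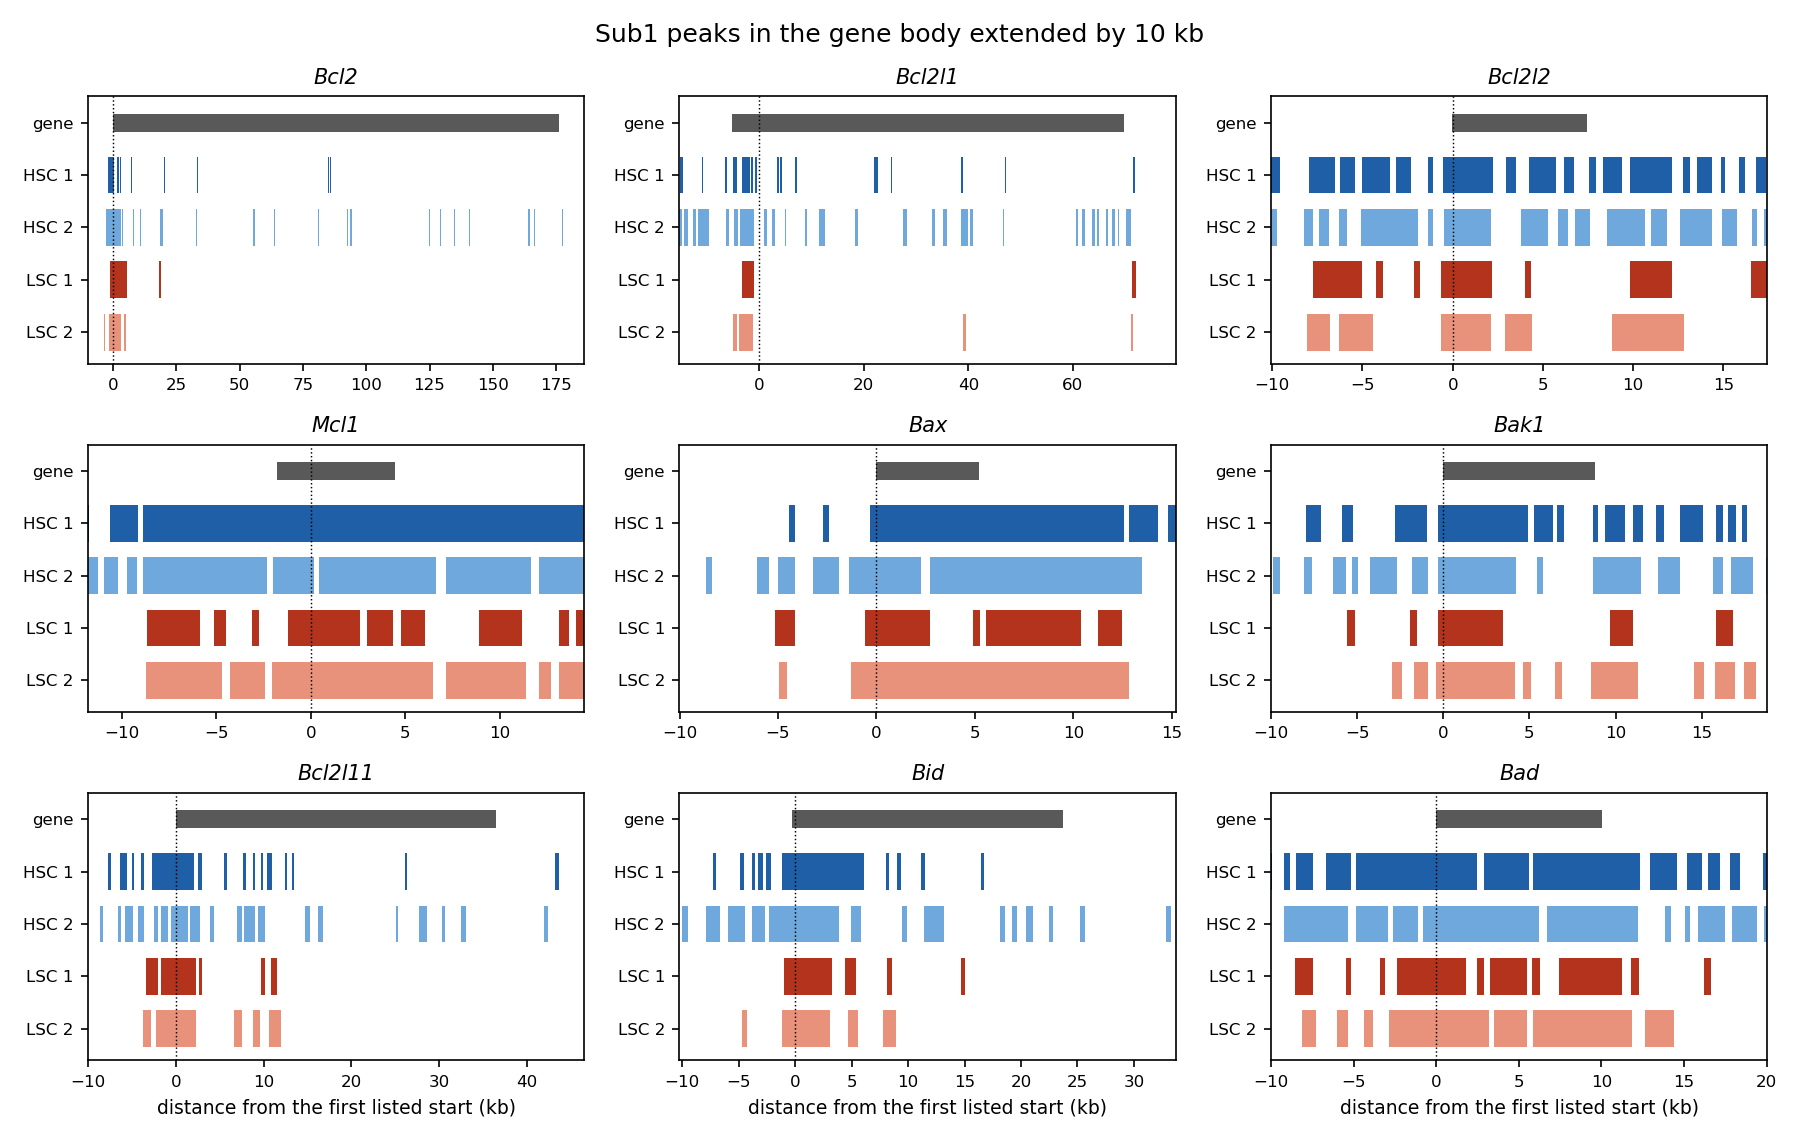
Sub1 peaks of the 4 libraries (coloured bars, HSC in blue and LSC in red) in the window of each member, with the gene body in grey; the x axis is the distance in kb from the first listed start (dotted line), in the direction of transcription. Every member had a peak within 1 kb of a listed start in all 4 libraries, and peaks along the bodies of Bcl2 and Bcl2l1 were mostly those of HSC libraries.

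The members' start-site peaks ranged from the middle to the top of the order of genes. Over the 9 members the median place was 87.3 in HSC 1, 79.3 in HSC 2, 79.6 in LSC 1 and 82.7 in LSC 2. Over the 8712 genes with a start-site peak in all 4 libraries it was 75.1 or 75.2 in every library. Bak1 and Bad, a pore-forming effector and a BH3-only gene, were at 93.2 or above in all 4 libraries. Bcl2l2 lay at 64.6 or below in all 4. Of the 9 members, 3 were placed higher in both HSC libraries than in both LSC libraries (Mcl1, Bcl2l11 and Bak1), 2 were placed higher in both LSC libraries (Bcl2 and Bcl2l1) and 4 overlapped. Over those 8712 genes, 21.7% were higher in both HSC libraries and 24.8% in both LSC libraries. The median difference, HSC minus LSC, was 0.0186 points for the members and -0.763 points for these 8712 genes. As a list the members therefore showed no common direction. Beside the 3 members higher in HSCs, the 6 mature neutrophil genes with a start-site peak in every library were also placed higher in HSCs, by a median of 20.5 points, and their part in these results was not tested.

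**Figure D2:**
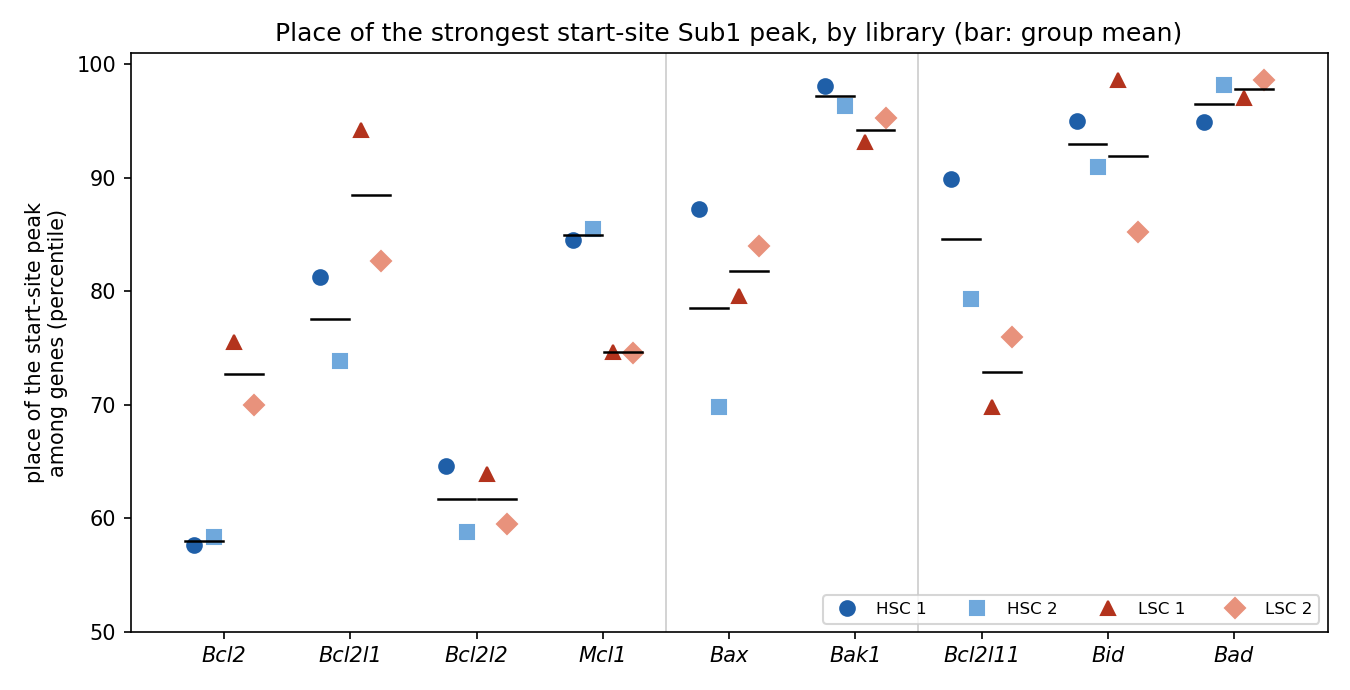
Place of each member's strongest start-site peak among genes (y axis, percentile), with 1 symbol per library and a bar at the mean of each group of 2; grey lines part survival genes, effectors and BH3-only genes. The Mcl1 symbols fall into an HSC pair at 84.5 and 85.5 and an LSC pair at 74.7 and 74.6, while those of Bid and Bax overlap.

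Mcl1, the survival gene with a short-lived protein, was placed higher in the HSC libraries, and both of its pairs of libraries were close. Its start-site peak was placed at 84.5 in HSC 1, 85.5 in HSC 2, 74.7 in LSC 1 and 74.6 in LSC 2. Both HSC values lay above both LSC values, with 9.74 points between the nearest. The means were 85.0 ± 0.758 in HSC and 74.7 ± 0.093 in LSC (SD, n = 2), a difference of 10.3 points (exact permutation p = 0.33). A gap at least as wide in favour of HSC was present at 4.09% of the 8712 genes. Leaving out any 1 library left the difference between 9.8 and 10.9 points. The summits lay in the gene or just before the start. That of the strongest start-site peak was 155 bp upstream of the start at position 95658721 of chromosome 3 in HSC 1, 116 bp upstream in both LSC libraries, and 1181 bp downstream in HSC 2. This HSC 2 peak begins at 95659175, past the start. Another HSC 2 peak of nearly the same fold (54.1 against 55.1) covers the start, with its summit 426 bp upstream. The annotated gene runs on the plus strand from 95656944 to 95663179, so its listed start lies inside the annotated body. Whether a peak lies in an exon, an intron or an untranslated region was not analysed here for any member.

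The Mcl1 window, of 26.2 kb, was nearly filled with peaks in the HSC libraries and less so in the LSC libraries. Peaks covered 94.6% of it in HSC 1, 90.0% in HSC 2, 52.0% in LSC 1 and 78.5% in LSC 2, the highest share of any member in HSC 1, HSC 2, LSC 1 and LSC 2. In HSC 1 a single peak of 24549 bp spanned the gene and its flanks. The strongest start-site peaks of the other libraries were 6185 bp (HSC 2), 3854 bp (LSC 1) and 8547 bp (LSC 2) wide. Merged over libraries, the gene and its flanks lay in 1 of the window's 3 regions, of 28775 bp at 95649858 to 95678632, present in all 4. No other protein-coding gene lies in this window. The window held 3, 8, 9 and 6 peaks in HSC 1, HSC 2, LSC 1 and LSC 2, so HSC 1 covered most of it with the fewest peaks.

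Bcl2, the founding survival gene, was placed lowest of the members in both HSC libraries and higher in the LSC libraries. Its places were 57.7 in HSC 1, 58.4 in HSC 2, 75.5 in LSC 1 and 70.0 in LSC 2. The HSC values were nearly equal and the LSC values lay at least 11.6 points above them. The means were 58.1 ± 0.483 and 72.8 ± 3.83 (SD, n = 2), with LSC higher by 14.7 points (exact permutation p = 0.33), and 1.58% of the 8712 genes had a gap as wide in that direction. The authors' fold of the same peaks was 15.7, 19.4, 122 and 67.1. Fold depends on each library's own background, so it is not compared between libraries.

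The Bcl2 peaks did not lie at the same position in the 4 libraries. The gene lies on the minus strand of chromosome 1, from 106538176 to 106714290, with 1 listed start at its upper end. In HSC 1 the strongest start-site peak had its summit 472 bp upstream of the start. In HSC 2, LSC 1 and LSC 2 it lay inside the gene, 1467, 1873 and 2177 bp downstream. Peaks left a gap over the start in 2 libraries. HSC 1 had none from 106714251 to 106714564 (314 bp) and LSC 2 none from 106714194 to 106714566 (373 bp). Both gaps hold the start and the GC-rich 250 bases shown above. When a summit within 1 kb of the start was required, a place could be given in HSC 1 (61.4) and LSC 2 (59.6) alone, and LSC was then not higher. The LSC peaks that gave Bcl2 its higher place were thus centred 1873 and 2177 bp inside the gene, and not at its start.

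Bcl2 also had the longest window, 196 kb, and few peaks in LSCs. It held 12 peaks in HSC 1, 21 in HSC 2, 3 in LSC 1 and 4 in LSC 2, which covered 3.21%, 7.54%, 3.87% and 3.05% of the window. Of 27 merged regions, 1 was found in all 4 libraries, that around the start (106708924 to 106717040). A further 22 were found in 1 HSC library alone. A single region was HSC-only, at 106706728 to 106707392, centred 7.23 kb inside the gene.

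Bcl2l1, which encodes BCL-XL, a survival protein of the erythroid and platelet lineages, was also placed higher in LSCs. Its places were 81.3 in HSC 1, 73.9 in HSC 2, 94.2 in LSC 1 and 82.7 in LSC 2. The groups did not overlap, but HSC 1 and LSC 2 were separated by 1.36 points. The means were 77.6 ± 5.21 and 88.4 ± 8.15 (SD, n = 2), LSC higher by 10.8 points (exact permutation p = 0.33), and 18.8% of the 8712 genes had as wide a gap for LSC. HSC minus LSC was -5.05 points without LSC 1, -7.13 without HSC 2 and -16.6 without LSC 2. The signal centred on the 2 upstream starts, at 152830717 and 152831728 on the minus strand of chromosome 2. Summits lay within 454 bp of the nearest start in all 4 libraries. The 250 bases before the downstream start at 152828489 held no peak in any library. Upstream of the gene, 3 further regions were HSC-only, centred 3.0, 7.48 and 12.3 kb before the most upstream start, at 152831728. The window held 15 peaks in HSC 1, 27 in HSC 2, 2 in LSC 1 and 4 in LSC 2.

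Bcl2l2, which encodes BCL-W, showed no difference in place. It was at 64.6 in HSC 1, 58.8 in HSC 2, 63.9 in LSC 1 and 59.5 in LSC 2. The group means were 61.7 ± 4.08 and 61.7 ± 3.16 (SD, n = 2), so the difference was far inside the spread between libraries. Summits lay 329 to 493 bp downstream of the start at 54883425 on the plus strand of chromosome 14. Start-site peaks were 2651 to 2800 bp wide, the narrowest range of any member. The start was not where the strongest signal of the window lay. That peak had its summit in Pabpn1, a poly(A)-binding protein gene, in HSC 1. In HSC 2, LSC 1 and LSC 2 it was in Ppp1r3e, a gene of glycogen metabolism, 6033 bp before the Bcl2l2 start in both LSC libraries. Of its 11 regions 4 were HSC-only, the highest number of any member.

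The effector genes Bax and Bak1 encode the proteins that form the mitochondrial pore. Bak1 had a strong start-site peak throughout, at 98.1 in HSC 1, 96.3 in HSC 2, 93.2 in LSC 1 and 95.3 in LSC 2. Both HSC values were above both LSC values, by 1.0 point between the nearest. The means were 97.2 ± 1.27 and 94.2 ± 1.5 (SD, n = 2), a difference of 2.96 points (exact permutation p = 0.33), and 18.1% of the 8712 genes had as wide a gap for HSC. Without LSC 1 the difference was 1.9 points. In HSC 1 this peak ranked 371 of 115881 peaks. Its summit was at the same base in HSC 2, LSC 1 and LSC 2, 645 bp downstream of the start at 27028627 on the minus strand of chromosome 17, and 856 bp downstream in HSC 1. Ggnbp1, annotated from 27018035 to 27036378, spans the whole of Bak1, so these peaks lie in both genes.

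Bax had the largest spread between libraries of 1 group. Its places were 87.3 in HSC 1, 69.8 in HSC 2, 79.6 in LSC 1 and 84.0 in LSC 2, so the HSC libraries lay on both sides of the LSC libraries. The means were 78.6 ± 12.4 and 81.8 ± 3.14 (SD, n = 2; exact permutation p = 1.0). The places were highest in the 2 libraries with the widest peak over the start. Its width was 12942 bp in HSC 1 and 14109 bp in LSC 2, but 3647 bp in HSC 2 and 3303 bp in LSC 1. The wide peaks of HSC 1 and LSC 2 had their summits 7584 and 7803 bp downstream of the Bax start, beyond the gene and inside Ftl1. Ftl1, which encodes the ferritin light chain, an iron storage protein, is annotated at 45457944 to 45459886 of chromosome 7. The Bax body is annotated at 45461695 to 45466903. The strongest peak of the Bax window had its summit in Ftl1 in HSC 1, HSC 2 and LSC 2, with folds of 42.7, 75.8 and 109. In HSC 2 and LSC 1, where a separate peak lay at the start, summits were 454 and 312 bp downstream of it, and with the summit required the places were 73.5 and 80.9. For Bax, therefore, values in HSC 1 and LSC 2 are those of a peak shared with Ftl1.

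Among the BH3-only genes, Bcl2l11, which encodes BIM, was placed higher in HSCs. Its places were 89.9 in HSC 1, 79.3 in HSC 2, 69.8 in LSC 1 and 76.0 in LSC 2. The groups did not overlap, with 3.21 points between HSC 2 and LSC 2. The means were 84.6 ± 7.49 and 72.9 ± 4.43 (SD, n = 2), a difference of 11.6 points (exact permutation p = 0.33), and 12.4% of the 8712 genes had as wide a gap for HSC. Leaving out HSC 1 lowered the difference most, to 6.35 points. Summits lay within 628 bp of 1 of the starts at 128126038 and 128127575 on the plus strand of chromosome 2. The first start overlaps the end of Acoxl, an acyl-CoA oxidase-like gene. A second region found in all 4 libraries, 128133718 to 128136205, was centred 7.39 kb downstream of the second start. A region at 128119500 to 128121305, centred 5.64 kb before the first start, was HSC-only.

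Bid, which links death receptors to mitochondria after its cleavage, was at 95.0 in HSC 1, 91.0 in HSC 2, 98.6 in LSC 1 and 85.2 in LSC 2. The LSC libraries enclosed the HSC libraries. The means were 93.0 ± 2.83 and 91.9 ± 9.42 (SD, n = 2; exact permutation p = 1.0). In LSC 1 the Bid peak ranked 252 of 41097, with a fold of 284, the highest fold of any member peak in that library. Its summits lay 278 to 601 bp downstream of the start at 120916824 on the minus strand of chromosome 6. Of its 17 regions 3 were HSC-only, centred 12.1 kb inside the gene and 3.25 and 7.27 kb before the start.

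Bad, a BH3-only gene whose protein is held inactive by survival-factor signalling, had the highest places of the family in HSC 2 and LSC 2. It was at 94.9 in HSC 1, 98.2 in HSC 2, 97.0 in LSC 1 and 98.6 in LSC 2, and the groups overlapped. The means were 96.6 ± 2.29 and 97.8 ± 1.1 (SD, n = 2; exact permutation p = 0.67). Summits lay 192 bp upstream of the second listed start (6942562 on the plus strand of chromosome 19) in HSC 1, LSC 1 and LSC 2, and 96 bp upstream in HSC 2. The Bad body (6941861 to 6951905) overlaps that of Gpr137 (6938057 to 6942450), which runs on the other strand. The summit of HSC 1, LSC 1 and LSC 2 lies in both bodies, so the signal cannot be assigned to 1 of them. Peaks covered 78.7% of the Bad window in HSC 1, 79.6% in HSC 2, 45.6% in LSC 1 and 59.3% in LSC 2.

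Across the 9 windows together, the HSC lists held more peaks, mostly away from the members' own starts. The windows, 529 kb in all, held 104 peaks in HSC 1, 134 in HSC 2, 50 in LSC 1 and 46 in LSC 2. The geometric mean was 2.46 times as high in HSCs as in LSCs. That ratio was 2.75 for peaks more than 1 kb from a member's own starts and 1.4 for start-site peaks. Peaks at the starts of neighbouring genes were counted among the former. Over all protein-coding windows the ratio for all peaks was 3.36 (peaks per 100 kb). Pooled, the member windows held 19.6, 25.3, 9.44 and 8.69 peaks per 100 kb, against 9.56, 14.8, 3.76 and 3.33 in all windows. Bcl2, with the longest window, lay below all windows in every library, at 6.12, 10.7, 1.53 and 2.04. Bcl2l1 lay below in LSC 1 (2.1), and the remaining members lay above throughout. Peaks covered 24.6%, 30.5%, 14.8% and 19.3% of the pooled member windows, against 7.58%, 12.1%, 4.74% and 5.53% of all windows. The covered share was again lower at Bcl2 in every library, and at Bcl2l1 in LSC 1 (3.06%) and LSC 2 (4.73%).

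The larger number of HSC peaks in the 9 windows together was not kept when the lists were cut to equal size. That cut removes the difference in total number by design, so the source of the HSC excess was not tested. In lists of equal size the 9 windows held 43, 48, 49 and 46 peaks, a ratio of 0.957. Bcl2 then held 3 peaks in HSC 1, 1 in HSC 2, 2 in LSC 1 and 4 in LSC 2. Bcl2l1 held 1, 6, 2 and 4, in the same order of libraries. Bid held fewer peaks in both HSC libraries (1 and 2) than in the LSC libraries (4 each), the reverse of the lists as deposited (10 and 14 against 4 each). Bcl2l11 kept more in both HSC libraries, with 6 and 8 against 5 each.

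**Figure D3:**
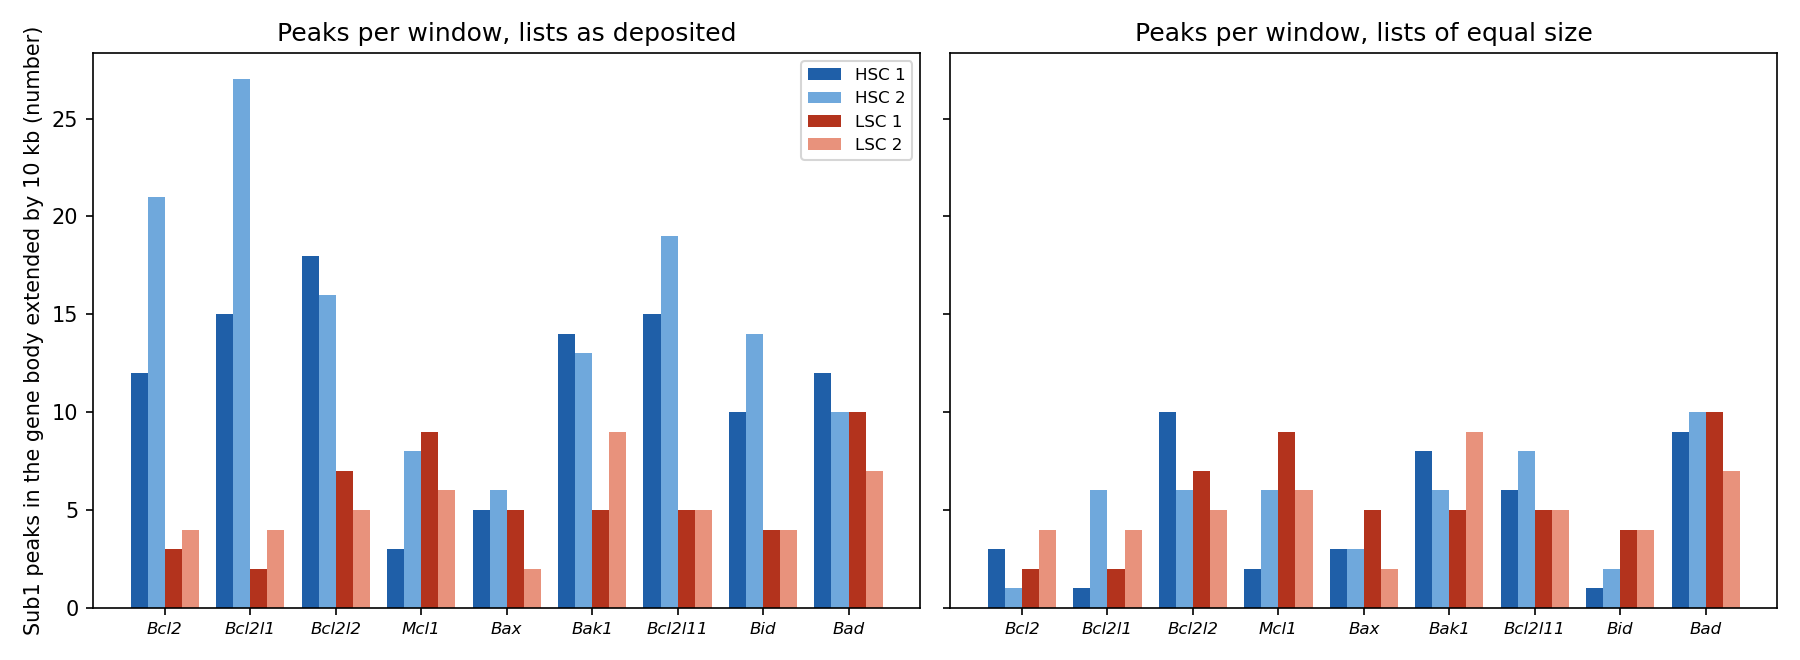
Number of Sub1 peaks in each member's window (y axis) in the 4 libraries, in the lists as deposited (left) and in lists of the 34185 strongest peaks each (right). The tall HSC bars at Bcl2 (12 and 21) and Bcl2l1 (15 and 27) in the left panel shrink to 3 and 1 and to 1 and 6 in the right panel.

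Merging the peaks of all libraries gave 136 regions in the member windows. Of these, 22 (16.2%) were found in all 4 libraries, against 6.93% of 204566 regions in all protein-coding windows. A further 18 (13.2%, against 9.18%) were HSC-only. None was LSC-only (0.349% of all regions). Regions of 1 HSC library alone made up 58.1% of those of the members and 72.4% of all. Regions were merged over whole peaks, and in 3 of the 22, at the window edges of Mcl1, Bax and Bad, at least 1 library had its peaks beyond the window. In lists of equal size the members had 51 regions, of which 16 (31.4%, against 20.4% of all) were in all 4 libraries, 2 (3.92%, against 2.9%) were HSC-only and 2 (3.92%, against 5.7%) were LSC-only.

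Other genes of the pathway were taken from 6 lists with 56 genes, 42 of them with a listed start. A start-site peak was present in all 4 libraries at 34 of the 42 (81.0%, against 49.8% of all genes). Of these 34, 9 were placed higher in both HSC libraries, 5 higher in both LSC libraries and 20 overlapped, with a median difference of 1.45 points. The background shares are the 21.7% and 24.8% given above. Gaps for HSC at least as wide as that of Mcl1 were present at 4 of these 34, against 4.09% of the 8712 genes. These 4 were picked by that size after their values were seen. Bbc3, which encodes the p53-induced BH3-only protein PUMA, was at 93.8, 91.0, 68.5 and 76.0 in HSC 1, HSC 2, LSC 1 and LSC 2. Foxo3, a transcription factor of stem cell quiescence and a known activator of BIM and PUMA transcription, was at 90.8, 91.2, 74.7 and 75.5. Birc3, an inhibitor of apoptosis, was at 86.1, 84.6, 69.0 and 70.4. Bmf, another BH3-only gene, was at 67.5, 67.7, 56.2 and 57.6. All 4 had both HSC values at least as far above both LSC values as Mcl1 did, and each by the exact test has p no lower than 0.33.

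**Figure D4:**
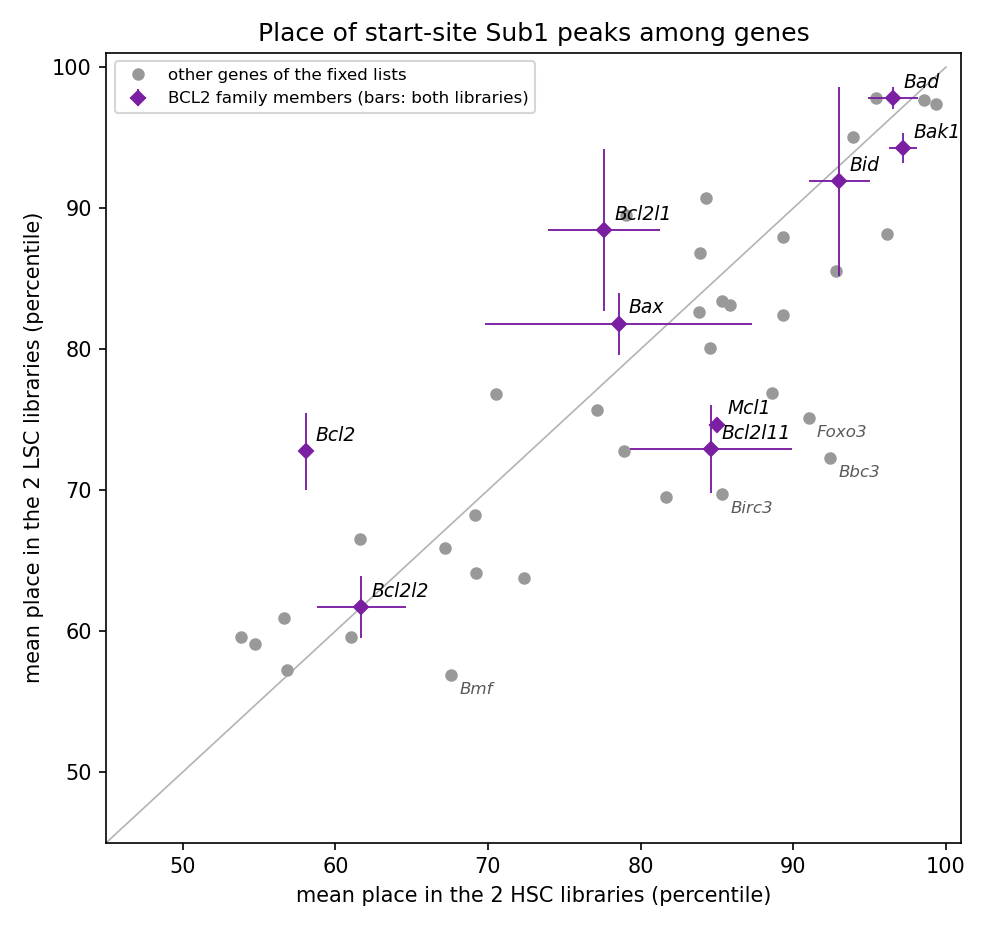
Mean place of the start-site peak in the 2 HSC libraries (x axis, percentile) against the 2 LSC libraries (y axis) for the 9 members (purple, bars spanning both libraries) and 34 other pathway genes (grey), with the line of equal place. Bcl2 and Bcl2l1 lie above the line, and Mcl1 and Bcl2l11 lie below it beside Bbc3, Foxo3, Birc3 and Bmf.

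The lists differed in how many genes had a start-site peak. Among other BCL2 family genes it was 5 of 12 in all 4 libraries, led by Bcl2l12 and Bcl2l13. Of these 5, 3 were placed higher in both HSC libraries and 0 in both LSC libraries. Bcl2l10, a family member known from oocytes, was the only HSC-only gene of the 6 lists by window peaks (6, 8, 0 and 0 peaks). Bcl2a1a had no window peak in any library, but Bcl2a1a, Bcl2a1b and Bcl2a1d are near-identical copies between which reads may not be placed. All 9 apoptosome and caspase genes with a listed start had a peak in all 4 libraries. Cycs, which encodes the cytochrome c released through the pore, was placed at 94.3 and 96.5 in HSCs and 97.5 and 98.1 in LSCs. Casp8, the initiator caspase that cleaves BID, was at 94.9 and 90.7 in HSCs and 87.3 and 83.8 in LSCs. Neither pair overlapped the other in these 2 genes, and their directions were opposite.

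The remaining lists were occupied nearly throughout. All 6 caspase inhibitors had a start-site peak in all 4 libraries, led by Birc2 and Birc5, as did all 3 mitochondrial channel partners with a listed start, led by Vdac1 and Slc25a5. All 5 death receptor genes did as well. Cflar, whose protein blocks caspase-8, was at 98.9, 99.8, 99.1 and 95.7, and Tnfrsf1a, a receptor for tumour necrosis factor, was at 98.4, 93.9, 80.2 and 96.1. None of these 5 genes separated the groups. Of 7 regulators of the family, 6 had a peak in all 4 libraries, led by Ddit3 (97.7, 99.4, 97.2 and 98.2), which encodes the stress factor CHOP, and Trp53 (83.8, 94.8, 78.4 and 86.5). Foxo1 was placed higher in LSCs (53.0, 54.6, 59.6 and 59.6), the opposite direction to Foxo3.

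Mcl1 and Bcl2 were compared with all other genes for the pattern of their strongest window peak over the 4 libraries, by the Euclidean distance between places among 21887 genes. Nearest to Bcl2 were Zbed3 (distance 1.21 points), Zfp808 (2.15) and Psca (3.07). Zbed3 was at 51.2, 50.8, 69.1 and 62.4, and Bcl2 on this window scale at 50.6, 49.9, 69.0 and 63.1. Nearest to Mcl1 were Polg2, Ddx5 and Cep95, all at a distance of 1.69 points. These 3 are neighbours on chromosome 11 with identical values, since their windows share the strongest peak.

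Mature neutrophil markers with a start-site peak in all 4 libraries differed in the same direction as Mcl1, Bcl2l11 and Bak1. Among the markers of other blood lineages, Klf1 alone could be compared in this way. Of 8 mature neutrophil genes, 8, 8, 6 and 7 had a start-site peak in HSC 1, HSC 2, LSC 1 and LSC 2. All 6 with a peak in all 4 libraries were placed higher in both HSC libraries, with places of 64.3 to 89.8 in HSCs and 45.5 to 64.3 in LSCs. S100a8, for example, was at 88.2, 89.8, 53.7 and 64.3. Retnlg was HSC-only by start-site and by window peaks. Cd79a, a B cell gene, and Cd3g, a T and NK cell gene, were also HSC-only by start-site peaks, as were 2.29% of genes. By window peaks, Pax5, Ebf1 (B cell), Cd3e, Ncr1 (T and NK cell), Hba-a1 and Alas2 (erythroid) were HSC-only, as were 8.59% of all genes. Start-site peaks were found at 1, 2, 0 and 0 of 3 B cell genes, 1, 3, 0 and 0 of 5 T and NK cell genes and 2, 1, 2 and 1 of 5 erythroid genes. Of these, Klf1 alone had a peak in all 4 libraries, and its groups overlapped (69.8, 90.0, 68.4 and 79.7).

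The sorting markers matched the labels in part. Slamf1 (CD150, part of the HSC gate) had window peaks in HSC 1 and HSC 2 alone (1 and 10). Ly6a (Sca-1), which has no listed start, had 8 and 9 window peaks in HSCs against 1 and 1 in LSCs. Such counts were higher in the HSC lists over all windows too (3.36 times), and 8.59% of all genes were HSC-only by them. They were also higher in HSCs at Kit (6, 12, 1 and 1), a marker of both gates, and at Cd48 (5, 12, 1 and 2). By the counts at Cd48, they do not single out the HSC markers. Kit was placed higher in LSCs (53.7, 61.1, 66.3 and 78.4), as was Cd48 (66.1, 65.7, 77.0 and 83.5), which the HSC gate excludes. Fcgr3, which encodes part of the CD16/32 antigen of the LSC gate, went against the labels, at 84.2 and 92.8 in HSCs and 75.8 and 83.1 in LSCs. Fcgr2b, also a listed sorting marker, overlapped, at 74.8 and 88.9 in HSCs and 73.5 and 84.1 in LSCs. Cd34, part of the LSC gate, had no start-site peak in HSC 1 and was at 41.1 in HSC 2, 76.9 in LSC 1 and 63.4 in LSC 2. Binding of Sub1 at a marker gene is not a measure of its expression.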

How the data were processed

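Sub1 CUT&Tag was performed on sorted mouse bone marrow cells with a low-input kit, per the labels' protocols, and 4 peak lists were used, 1 per library. Per the submitters' processing notes, FastQC 0.11.5, Bowtie2 2.2.9, MACS2 and ChIPseeker were used with mm10; pooling, duplicate removal, a control and the caller's settings are not given in the sources used here. Peaks were deposited per library. Each peak carries the authors' fold, a ratio to the background of its own library, the authors' −log10 p and −log10 q, and a deposited score that was not used in tests. No reads or signal tracks were used, so strength is known through these values alone. Starts and sequences came from RefSeq tables for GRCm38.p6, and all 9 members matched; exons were not used here.

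Overlaps, places and exact permutation tests were computed with Python 3.11.15, NumPy 2.4.6, pandas 2.3.3 and SciPy 1.17.1, and figures were drawn with matplotlib 3.10.9. The overlap code was tested on simulated data. The members and lists were chosen with earlier results of these data known. Named genes are all 9 members, listed genes found in 1 cell type alone, the 2 genes per list whose weakest of 4 start-site peaks was placed highest, neighbours under a member's strongest peak, and the 3 genes nearest to Mcl1 and to Bcl2. Other listed genes were named after their values were seen. Alternatives were lists of equal size, a −log10 q of at least 10, the gene body alone or with 50 kb, the summit in place of the peak, a 3 kb start-site window, order by fold, a replicate block and leaving out each library.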

Additional observations from a re-analysis of the deposited data

How the results depend on the processing

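No member was occupied in 1 cell type alone under any alternative run (counts of 0, also with each library left out). The log2 ratio of peaks in the 9 windows, HSC over LSC, was 1.30 as deposited and turned to -0.06 in lists of equal size, because fewer HSC peaks enter. It was 1.19 at a −log10 q of at least 10, 1.43 with 50 kb, 1.28 with summits, and 1.12 to 1.48 with 1 library left out. The difference in covered share was 10.5 percentage points, 3.31 in lists of equal size, 5.81 over gene bodies alone, 9.9 at the stricter q, 11.6 with 50 kb and 7.55 to 13.5 with 1 library left out. Added after the data were seen, merging regions in lists of equal size moved the HSC-only regions from 18 to 2 and the LSC-only regions from 0 to 2. In lists of equal size the log2 ratio of peak number turned at Bcl2 (2.2 to -0.71), Bcl2l1 (2.83 to -0.21), Bax (0.79 to -0.08) and Bid (1.56 to -1.5). Of 79 values of a member's difference in place under alternatives, 71 kept their direction and 8 turned, all at members whose groups overlapped. Many of the 79 could not turn. Order by fold, lists of equal size and the replicate block repeated the main values. Leaving out 1 library cannot turn a member whose groups do not overlap. The tally is therefore no measure of robustness. With a 3 kb window Bcl2l2 turned to -0.17 points and Bax to 8.95. With 1 library left out, Bcl2l2 ran from -2.86 to 2.9 (turning without HSC 1 and, at -2.21, without LSC 2), Bax from -12.0 to 5.51 (turning without HSC 2), Bid from -5.52 to 7.79 (turning without LSC 2 and, at -0.868, without HSC 1) and Bad from -2.85 to 0.389 (turning without HSC 1). The cause was not tested. No value with the summit required could be given for the group difference at Bcl2 and Bax. Blocking by replicate number left the ratio at 1.3 and the share at 10.5, and for single members the smallest paired p is 0.5. The labels tie the numbers to no shared batch. Over 8712 genes the difference between HSC libraries correlated with that between LSC libraries at r = 0.338, and with 2 pairs whether the numbers mark a batch was not settled. The unknown depth limits every count of weak peaks away from starts.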
